A study of Mus musculus with 104 samples.

Results

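Desmosterol was added to mouse bone marrow monocytes that also received the Notch ligand DLL4 and the cytokine TGF-beta, and 4 of the 104 libraries of the study make this comparison. It sets the 2 libraries given DLL4, TGF-beta and desmosterol for 48 h against the 2 given DLL4 and TGF-beta for 48 h, so that the ligands are common to both groups and the sterol is what differs. All cells came from C57BL/6J mice, were labelled as marrow monocytes cultured for 2 days, and were treated in vitro with no genetic change. The same table holds 6 further libraries, 2 untreated for 48 h, 2 given desmosterol alone for 48 h and 2 given DLL4 alone for 48 h, which makes 10 in all. The column headers of the table name the cells as male BMDMs (bone marrow-derived macrophages), while the labels call them marrow monocytes. The labels give no dose and no vehicle for desmosterol, and whether the replicates are separate mice or cultures is not stated, so the p-values speak for the spread between these libraries, which may be technical.

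Desmosterol is the last intermediate of 1 branch of cholesterol synthesis. It binds the liver X receptors (LXR), nuclear receptors that switch on genes for cholesterol export, lipoprotein handling and fatty acid synthesis. Sterols also hold the SREBP transcription factors in the endoplasmic reticulum, which lowers the genes for cholesterol synthesis and for uptake of lipoproteins. In the liver, Notch ligands, TGF-beta family members and sterols are among the signals that monocytes meet when they replace Kupffer cells, the resident macrophages.

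The promoters of 3 responding genes are shown because each held a match to a kind of site known for these factors. In the RefSeq table of promoters on GRCm38.p6 (32851 promoters of 300 bases, 250 before to 50 after each start), a degenerate LXR direct repeat known as DR4, searched on both strands as GGTNA, 5 bases of any kind and GGTNA again, was found in 0.718%. A sterol response element, searched as TCACNCCAC on both strands, was found in 1.24%, and each window shown held 1 match of 1 of the motifs. Of the 17 LXR targets listed here 11 had an entry and 2 of them, Abca1 and Srebf1, held the direct repeat, in 2 of 16 promoters. Of the 20 cholesterol synthesis genes 15 had an entry and 1 of them, Hmgcs1, held the sterol response element, in 1 of 18 promoters. Matches this few say nothing about either list as a whole. Each sequence below runs 5′ to 3′ on the strand of its gene, with the match in capitals and 50 bases on either side. In Abca1 and Srebf1 the match reads on the opposite strand, so that the capitals show its reverse complement. The end of the promoter entry, past the start, was found in a transcript of its gene for Abca1 and Srebf1. For Hmgcs1 it was not found, so the place of its start is less sure. A match is a description of these letters and not a bound site.
Abca1, chr4:53159898-53160012, - strand, match beginning 67 bases before the start: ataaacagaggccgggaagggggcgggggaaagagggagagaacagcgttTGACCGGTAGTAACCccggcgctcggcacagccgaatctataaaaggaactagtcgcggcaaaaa
Srebf1, chr11:60210589-60210703, - strand, match beginning 182 bases before the start of 1 of its 3 listed promoters: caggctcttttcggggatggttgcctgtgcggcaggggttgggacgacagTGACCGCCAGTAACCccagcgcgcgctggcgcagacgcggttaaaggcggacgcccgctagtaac
Hmgcs1, chr13:119690164-119690272, + strand, match beginning 137 bases before the start: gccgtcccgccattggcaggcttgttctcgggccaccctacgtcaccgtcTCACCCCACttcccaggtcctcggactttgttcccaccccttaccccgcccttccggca

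Levels are given as TPM, a measure scaled for transcript length and library. Differences are log2 differences of TPM + 1 between group means, with the limma standard error (SE), a scale that understates the change of genes with low TPM. A gene was tested where at least 2 of the 10 libraries reached 4 TPM, and it passed where the Benjamini-Hochberg adjusted p of limma over all tested genes was below 0.05. Each library held 15009139 to 17605469 reads, and no library stood apart from its replicate on the first 2 principal components. The first component held 86.6% of the variance and separated the libraries with DLL4 from those without. The labelled cell type was present in every library: all 10 macrophage and monocyte markers were tested, and their summed level was 8410 to 8482 TPM with the ligands, 8772 to 9019 TPM with desmosterol added and 27390 to 27702 TPM in untreated cells. The Notch target Hes1 read 92.4 and 98.6 TPM in the libraries with DLL4 and TGF-beta, 98.0 and 100.9 TPM with desmosterol added, and 0 and 0.113 TPM in untreated cells. The TGF-beta target Pmepa1 read 23.3 and 23.7 TPM with the ligands, 22.9 and 23.9 TPM with desmosterol added, and 0.096 and 0.109 TPM in untreated cells. Hes1 and Pmepa1 were therefore at like levels on either side of the desmosterol comparison. The listed TGF-beta targets summed to 1153 to 1172 TPM untreated, 2815 to 2839 TPM with DLL4 alone and 3168 to 3216 TPM with both. Levels against untreated cells thus do not separate the effects of DLL4 and TGF-beta.

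Desmosterol raised genes of cholesterol export and desaturation and lowered genes of cholesterol synthesis in cells that had DLL4 and TGF-beta. Of 10234 genes tested, 810 passed (7.91%), of which 221 were higher (2.16%) and 589 lower (5.76%). Most of these differences were small, and 21 genes (0.205%) passed with a change of at least 2-fold. The median difference over all tested genes was -0.05. The share of higher genes among those that passed was 27.3%, and it was 43.4% under quantile normalization and 51.7% with limma-voom on recovered reads, so the balance of directions over all genes depends on scaling. The count fell to 358 without the first DLL4 plus TGF-beta library, 216 without the second, 306 without the first desmosterol library and 190 without the second. In bulk RNA, fewer cells of a type and less RNA per cell cannot be told apart.

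Of the 17 genes listed as LXR targets, 16 were tested and 15 rose, with a median difference of 0.86, and the other one listed, Apoc1, stayed under the filter. In each of the 16 tested genes both desmosterol libraries lay above both libraries without it, as they did in 16.6% of all tested genes. Scd1, stearoyl-CoA desaturase, which makes monounsaturated fatty acids, had the highest difference of the list. It read 8.98 and 7.82 TPM without desmosterol and 52.6 and 52.3 TPM with it (log2 2.51 ± 0.11 SE, adjusted p = 4e-06). Scd2, a second desaturase, went from 76.2 and 82.7 TPM to 196.6 and 191.6 TPM (1.28 ± 0.05, adjusted p = 1.4e-06). The lipid exporters followed. Abca1, which loads cholesterol onto apolipoprotein A-I, read 18.9 and 16.9 TPM without the sterol and 74.7 and 70.5 TPM with it (1.96 ± 0.07, adjusted p = 1.15e-06). Abcg1, which exports cholesterol to mature HDL particles, read 83.5 and 86.5 TPM without it and 185.8 and 188.3 TPM with it (1.13 ± 0.05, adjusted p = 3.55e-06).

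Among the lipoprotein genes of the same list, Pltp, the phospholipid transfer protein, went from 11.0 and 11.1 TPM to 30.1 and 32.8 TPM (1.43 ± 0.16, adjusted p = 0.00125). Apoe was the most abundant member, at 2257 and 2201 TPM without desmosterol and 3463 and 3314 TPM with it (0.60 ± 0.07, adjusted p = 0.00157). Apoc2, the activator of lipoprotein lipase, rose by 0.65, and Lpl, the lipase itself, went from 25.8 and 23.8 TPM to 41.5 and 43.4 TPM (0.75, adjusted p = 0.00107). All 4 genes rose, although their levels differed widely among themselves. The regulators of the list rose too. Srebf1, which encodes the SREBP that drives fatty acid genes, went from 40.7 and 43.0 TPM to 80.9 and 83.9 TPM (0.96 ± 0.04, adjusted p = 3.55e-06). Mylip, a ubiquitin ligase that limits lipoprotein uptake, rose by 0.89, Lpcat3, a lysophospholipid acyltransferase, by 0.36, and Nr1h3, which encodes LXR-alpha, by 0.37. Arl4c, a small GTPase, had the smallest difference that passed, 0.20.

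Cd5l and Mertk are genes of macrophages as well as LXR targets. Cd5l, a secreted scavenger protein of Kupffer cells, went from 5.85 and 7.10 TPM to 14.6 and 14.0 TPM (1.04 ± 0.09, adjusted p = 0.000299). Mertk, a receptor for the uptake of dying cells, went from 24.8 and 27.3 TPM to 47.1 and 47.9 TPM (0.84 ± 0.06, adjusted p = 0.000116). The tested member that did not pass was Smpdl3a, a phosphodiesterase, at 129.7 and 132.7 TPM without desmosterol and 137.5 and 138.6 TPM with it (0.07, 95% interval -0.07 to 0.22, adjusted p = 0.522). With any 1 of the 4 libraries left out, 12 to 13 of the 16 still rose (Nr1h3 and Arl4c lost the call without any of the 4, Apoc2 without 3 of them), and 15 rose under both quantile normalization and limma-voom.

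**Figure D1:**
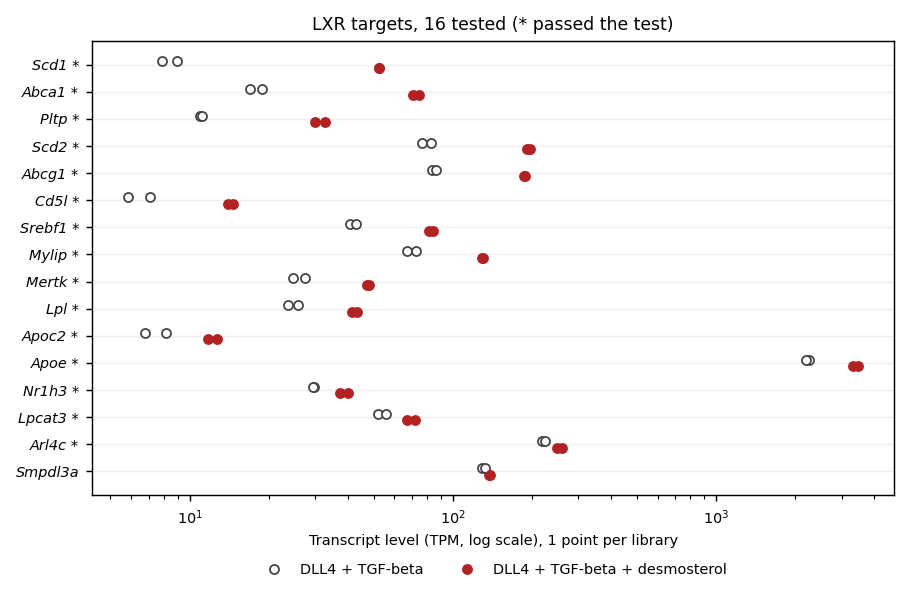
Transcript level (TPM, log axis) of the 16 tested LXR targets, 1 point per library, open for DLL4 plus TGF-beta and filled for DLL4 plus TGF-beta plus desmosterol, with an asterisk on the 15 genes that passed. The filled points lie to the right of the open points in every row, from Scd1 at 8.98 and 7.82 against 52.6 and 52.3 TPM to Smpdl3a, where the gap is smallest.

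Cholesterol synthesis genes moved the other way. Of 20 listed, 19 were tested and 14 fell, with a median difference of -0.60 beside -0.05 over all genes, and Idi1 stayed under the filter. Hsd17b7, a ketosteroid reductase, fell from 4.92 and 4.88 TPM to 1.89 and 2.12 TPM (-0.98).

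Genes that fell were found among the early and the late steps of the pathway. Hmgcs1, the synthase that makes HMG-CoA, went from 76.3 and 76.9 TPM to 48.2 and 44.4 TPM (-0.71, adjusted p = 0.000198). Fdps, which makes farnesyl diphosphate, fell by 0.70 on the log2 scale and Acat2, which joins the first acetyl units, by 0.45. In the middle of the pathway Sqle, squalene epoxidase, went from 62.2 and 64.1 TPM to 37.6 and 38.4 TPM (-0.72, adjusted p = 0.000212), and Lss, which closes the sterol rings, fell by 0.60 on the log2 scale. Among the steps that trim lanosterol, Cyp51, the demethylase, went from 40.1 and 39.2 TPM to 22.9 and 22.2 TPM (-0.79, adjusted p = 7.14e-05). Msmo1 and Nsdhl, which remove further methyl groups, each had -0.63, and Tm7sf2, a sterol reductase, had -0.47. The last desaturase, Sc5d, had -0.42, and Dhcr7, which acts at the end of the parallel branch, went from 22.1 and 22.0 TPM to 13.7 and 14.0 TPM (-0.63, adjusted p = 0.000388).

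The 5 tested synthesis genes that did not pass were Mvk at -0.22, Pmvk at -0.08, Mvd at -0.26, Fdft1 at -0.13 and Ebp at -0.08. Their 95% intervals reached from -0.46 to 0.02 for Mvk, -0.26 to 0.10 for Pmvk and -0.51 to -0.02 for Mvd. With any 1 of the 4 libraries left out 11 to 13 genes of the list still fell (Lss, Tm7sf2 and Acat2 were those that could be lost), 13 fell under quantile normalization and 14 with limma-voom.

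**Figure D2:**
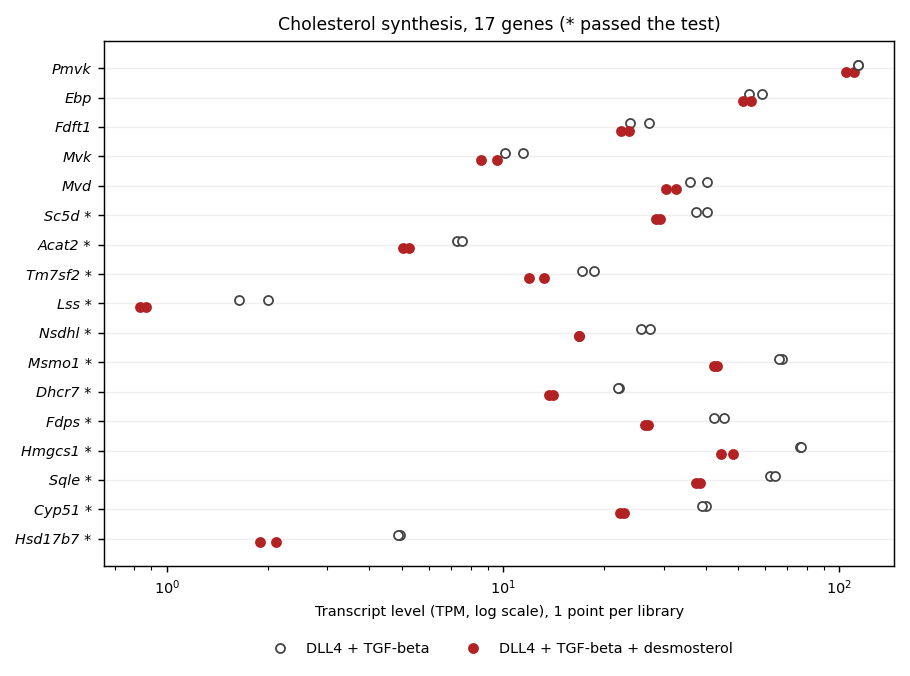
Transcript level (TPM, log axis) of 17 cholesterol synthesis genes, 1 point per library, open for DLL4 plus TGF-beta and filled for DLL4 plus TGF-beta plus desmosterol, with an asterisk on the 12 genes among them that fell. The order runs from Hsd17b7 at the bottom, where the points are 4.92 and 4.88 against 1.89 and 2.12 TPM, to Pmvk and Ebp at the top, where they lie close together.

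Regulators of sterol supply were tested in 16 of 18 listed genes, and 5 fell while 2 rose, with a median of -0.12. Of all tested genes 5.76% were lower and 2.16% higher. Srebf2, which encodes the SREBP that drives cholesterol genes, went from 101.6 and 105.2 TPM to 68.9 and 67.5 TPM (-0.59 ± 0.03, adjusted p = 3.26e-05). Stard4, a cytosolic sterol carrier, had -0.54, Tmem97, a sterol-regulated membrane protein, had -0.40, and Insig1, which anchors SREBPs in the endoplasmic reticulum, had -0.26. The 2 that rose were Cyp27a1, which makes the oxysterol ligand 27-hydroxycholesterol, at 127.9 and 124.4 TPM without desmosterol and 150.5 and 155.1 TPM with it, and Npc2, a lysosomal sterol carrier, by 0.17. With any 1 of the 4 libraries left out, 3 to 4 fell and 0 to 1 rose, and 3 fell under quantile normalization. Cyp27a1 and Tmem97 were lost in all 4 of these cases, and Insig1 and Npc2 in 3. Tmem97 and Insig1 were also lost under quantile normalization, with no filter on low values and in a fit of the 4 libraries alone. Tmem97 was lost with limma-voom too, and Cyp27a1 with no filter on low values.

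Genes of fatty acid synthesis did not move as a block. Of 17 tested, 5 rose and 3 fell, with a median of 0.03, and with 1 of the 4 libraries left out 3 to 5 rose and 1 to 3 fell. Beside Scd1, Scd2 and Srebf1, which also stand in the LXR list, the ligase gene Acsl3 rose by 0.48 and Mid1ip1, an activator of acetyl-CoA carboxylase, by 0.37. Elovl6, an elongase, went down from 2.16 and 2.41 TPM to 0.801 and 1.00 TPM (-0.79, adjusted p = 0.00735). The desaturase gene Fads2 had -0.65, and Acly, which makes cytosolic acetyl-CoA, had -0.27. Fasn, the fatty acid synthase, read 23.9 and 26.0 TPM without desmosterol and 22.8 and 23.5 TPM with it (-0.10, 95% interval -0.22 to 0.02, adjusted p = 0.279). Among 6 tested nuclear receptors of sterols and lipids Nr1h3 alone passed (3 rose with limma-voom), and of 11 PPAR and fatty acid oxidation genes 0 rose and 1 fell. These counts stand beside 2.16% higher and 5.76% lower over all tested genes.

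Outside the lists above, genes are named that passed, had the largest differences and had libraries that did not overlap between the groups, so their separation is part of the choice. Il18bp and Irf4 among them also belong to the Kupffer identity and dendritic cell lists below and are counted there again. Cd38, an enzyme that consumes NAD, went from 14.5 and 11.8 TPM to 49.6 and 51.3 TPM (1.87 ± 0.28 SE, adjusted p = 0.00631). Lrp1, a large scavenger and lipoprotein receptor, went from 58.1 and 61.6 TPM to 134.1 and 129.9 TPM (1.13 ± 0.04, adjusted p = 1.15e-06). Il18bp, the decoy for the cytokine IL18, went from 27.0 and 28.8 TPM to 51.9 and 56.99 TPM (0.94, adjusted p = 0.00187). Cd38, whose SE is the largest of these 3, no longer passed without the second library of either group (adjusted p = 0.0506 and 0.0529). Hist1h2bc, a histone gene of a large family of near-identical copies, rose by 0.88 (adjusted p = 0.0156). This call was lost with no filter on low values and without the second library of either group, and reads of such copies cannot be assigned surely.

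Among the genes that fell, Egr1 and Fos are immediate early transcription factors. Egr1 went from 56.9 and 69.4 TPM to 20.7 and 26.7 TPM (-1.38 ± 0.15, adjusted p = 0.00118), and Fos from 16.7 and 19.8 TPM to 7.72 and 8.12 TPM (-1.10 ± 0.07, adjusted p = 5.42e-05). Irf4, a transcription factor of dendritic cells and alternatively activated macrophages, went from 16.2 and 16.0 TPM to 6.94 and 8.34 TPM (-0.99, adjusted p = 0.000931). Plet1, a surface protein, went from 31.7 and 31.3 TPM to 12.0 and 12.2 TPM (-1.31 ± 0.12, adjusted p = 0.000479). Its antisense neighbour Plet1os had -1.01, a call lost without any 1 of the 4 libraries. On mm10, Plet1 lies at chr9:50494525-50505639 on the + strand and overlaps Plet1os, and since the strand setting of the counting is not given in the sources used here, their reads may not be told apart. The adhesion gene Cdh1 (E-cadherin) had -0.83, a call lost without the second library of either group and with a pseudocount of 0.25, the phosphodiesterase gene Pde3b -0.87 and the ubiquitin ligase gene Rnf144b -0.82. Ifitm1, an interferon-induced membrane protein, had -0.93, also lost without any 1 of the 4 libraries, and Tbc1d10c, a Rab GTPase activator of leukocytes, had -0.91.

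Chaperones of the endoplasmic reticulum fell slightly. Of 10 tested genes of its unfolded protein response 6 fell and 0 rose, with a median of -0.20. Among all tested genes 5.76% were lower and 2.16% higher. Hyou1 went from 46.3 and 44.6 TPM to 33.7 and 34.7 TPM (-0.40, adjusted p = 0.00129), and Hspa5, the chaperone BiP, from 342.9 and 329.4 TPM to 283.6 and 284.4 TPM (-0.24, adjusted p = 0.00709). Sdf2l1 had -0.36, Pdia4 -0.31, Xbp1 -0.22 and Edem1 -0.19. With any 1 of the 4 libraries left out 2 to 4 fell. Of 12 genes of the ATF4 stress response, Atf3 rose by 0.29 and 0 fell, and of 9 NRF2 targets 1 rose and 1 fell. With 1 of the 4 libraries left out these were 0 to 2 that rose for ATF4, and for NRF2 1 that rose and 0 that fell.

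Over all tested genes 2.16% were higher and 5.76% lower. Of the 23 Kupffer identity genes 13 reached the filter, 5 of these rose and 0 fell, with a median of 0.27. Beside Cd5l, Il18bp and Nr1h3 these were Slc40a1, the iron exporter, which went from 202.3 and 202.9 TPM to 247.7 and 242.0 TPM, and Dmpk, a kinase gene, which stayed under 3 TPM in all 4 libraries. The calls of Slc40a1 and Dmpk were lost without the second DLL4 plus TGF-beta library and without the first desmosterol library. That of Nr1h3 was lost without any 1 of the 4. With any 1 of the 4 libraries left out 2 to 3 rose. The Kupffer marks Clec4f, Timd4, Vsig4 and Marco stayed under the filter. Iron and heme genes were tested in 11, of which 4 rose and 1 fell. Hmox1, which degrades heme, went from 439.6 and 458.3 TPM to 580.1 and 632.3 TPM (0.43, adjusted p = 0.00255), Blvrb, the biliverdin reductase, rose by 0.36 and Hfe by 0.21, and Tfrc, the transferrin receptor, had -0.38. With any 1 of the 4 libraries left out 2 of the list rose, and limma-voom gave 7.

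The other macrophage lists are given as counts, beside 2.16% higher and 5.76% lower over all tested genes in limma. Of 9 complement genes C3ar1 rose by 0.35 and Cfp, properdin, had -0.27, and limma-voom gave 4 that rose. Of 9 monocyte genes S100a4, S100a6 and Ccr2 rose, by 0.87, 0.54 and 0.47, and S100a4 stayed under 4 TPM in these 4 libraries. The other 6 did not pass, and the median of the 9 was -0.02, with a lowest value of -0.39. Of 14 genes of lipid-associated macrophages Lpl and Lgals3 rose while the scavenger receptor Cd36 fell. Among 10 MHC class II genes 0 passed in limma, with 3 at an unadjusted p under 0.05, and limma-voom gave 4 that rose and 2 that fell, while their summed level was 33999 to 34406 TPM without desmosterol and 34861 to 36287 TPM with it. Of 10 inflammatory genes the chemokine Ccl3 rose by 0.38, and limma-voom gave 4 that rose and 1 that fell. Of 21 interferon genes 0 rose and 2 fell, beside 2 and 1 with limma-voom. Of 20 cell cycle genes 5 fell, Rrm2 at -0.58, Aurka at -0.50, Top2a at -0.38, Plk1 at -0.34 and Mki67 at -0.32, but 0 to 2 fell with any 1 of the 4 libraries left out, 1 under quantile normalization and 2 with limma-voom. Of 2 tested Notch targets 0 passed in limma or limma-voom, with 0 at an unadjusted p under 0.05, and of 15 TGF-beta targets Tgfbi rose by 0.16 while Id2 had -0.42. With 1 of the 4 libraries left out, the calls of Tgfbi and of the 2 interferon genes were lost in all cases, the monocyte list had 1 to 3 that rose and the inflammatory list 0 to 2.

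Markers of other cell types stood beside these results, and over all tested genes 2.16% were higher and 5.76% lower. Of 11 dendritic cell genes 5 were tested and 3 fell, Irf4, Flt3 at -0.71 and Cd209a at -0.48, though 1 fell with any 1 of the 4 libraries left out and 2 under quantile normalization. The summed level of the dendritic list was 94.9 to 104.9 TPM without desmosterol, 80.7 to 87.7 TPM with it and 10.5 to 10.7 TPM in untreated cells. Of 8 stromal and endothelial genes 3 were tested and 2 rose, Col1a1 from 8.02 and 8.35 TPM to 13.8 and 12.3 TPM and Col1a2 from 6.66 and 5.49 TPM to 11.1 and 9.96 TPM. With 1 of the 4 libraries left out 0 to 1 rose. The summed level of this list was 120.8 to 125.4 TPM without desmosterol and 131.6 to 135.7 TPM with it. Of 12 neutrophil genes 7 were tested and 0 passed in limma or limma-voom (0 at an unadjusted p under 0.05), with a sum of 111.9 to 136.4 TPM without desmosterol and 102.6 to 113.4 TPM with it. Lymphocyte genes summed to at most 6.96 TPM in these libraries, and all 7 erythroid and all 6 mast cell genes stayed under 1 TPM. The part of such cells in the results was not tested.

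**Figure D3:**
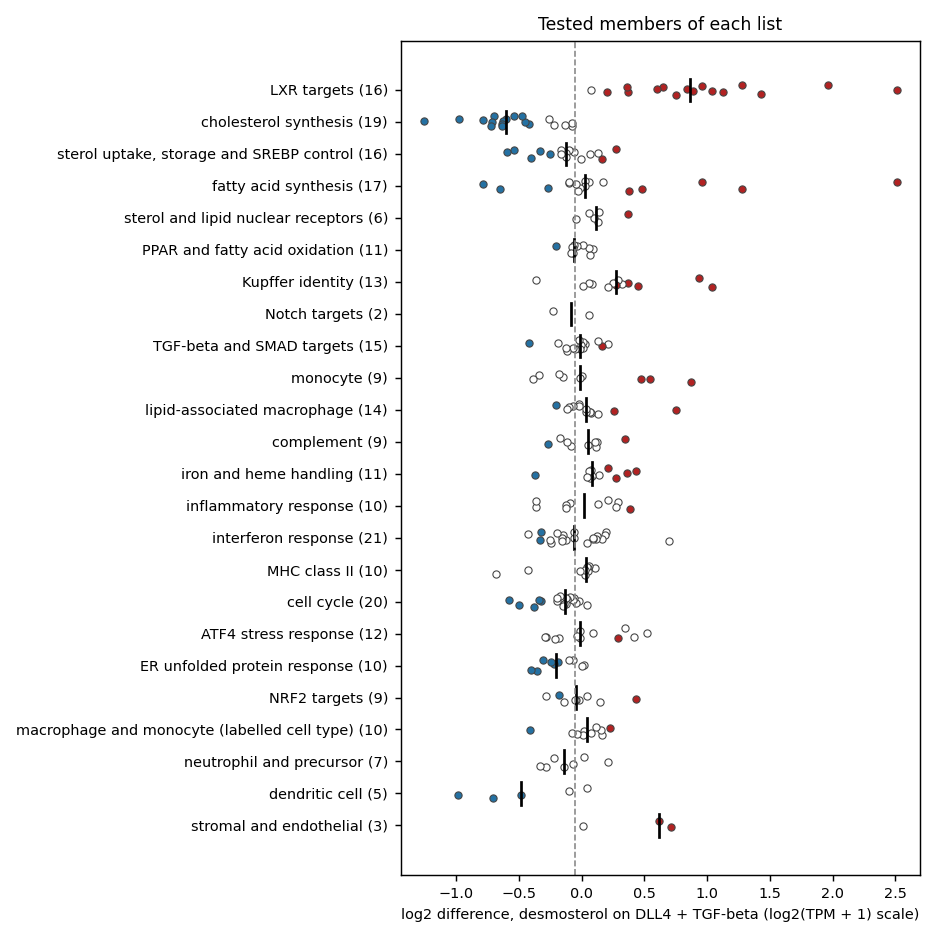
Log2 difference (desmosterol added to DLL4 plus TGF-beta against the ligands alone, log2(TPM + 1) scale) of each tested member of 24 lists, 1 point per gene, red where it rose, blue where it fell and open where it did not pass. The short bar is the list's median and the dashed line the median of all tested genes, -0.05. LXR targets lie to the right, with a median of 0.86, and cholesterol synthesis to the left, with -0.60.

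Desmosterol alone, in marrow monocytes without the ligands, gives the same sterol against 2 untreated libraries, and it shares no library with the first comparison. With desmosterol alone, 1359 genes passed (13.3%), 456 higher (4.46%) and 903 lower (8.82%). The 2 comparisons had 238 genes in common that passed in both, which is 29.4% of those with the ligands and 17.5% of those without, and 203 of these changed the same way while 35 went opposite ways. Of the genes that passed with at least a 2-fold change, 7 were shared, all in the same direction, among them Scd1, Scd2, Abca1, Abcg1 and Cd38. The value of Cd38 with desmosterol alone was unsteady, at 1.04 here and 0.48 to 3.35 under the other settings. Its call there was lost with no filter on low values, without either untreated library and without the second desmosterol library. The share of higher genes with desmosterol alone was 33.6%, and it was 41.9% under quantile normalization and 45.9% with limma-voom.

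The difference between the responses with and without the ligands was tested as an interaction in the same model, and 382 genes passed (3.73%). In 229 of them (2.24% of tested genes) the value was lower with the ligands, and in the others (1.50%) it was higher. Of these, 150 had passed with the ligands only, 160 without them only, 50 in both and 22 in neither. The lipid exporters responded in both settings, but by less with the ligands. Without them Abca1 went from 19.2 and 18.05 TPM to 132.4 and 119.7 TPM, a log2 difference of 2.69 against 1.96 with them (interaction -0.73, adjusted p = 0.0088). Abcg1 had 1.90 against 1.13 (interaction -0.77, adjusted p = 0.00135), Scd2 had 1.78 against 1.28 (interaction -0.50, adjusted p = 0.0088) and Arl4c 0.57 against 0.20 (interaction -0.37, adjusted p = 0.011). For Scd1 the test of the difference did not pass, with 2.78 alone and 2.51 with the ligands (interaction -0.27, 95% interval -0.63 to 0.09, adjusted p = 0.401). Srebf1 had 0.93 and 0.96 (interaction 0.03, 95% interval -0.10 to 0.16, adjusted p = 0.839).

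Within the list of LXR targets, Cd5l, Mertk and Lpl responded more with the ligands. Cd5l read 59.0 and 64.5 TPM in untreated cells and 62.8 and 62.8 TPM with desmosterol alone, so the sterol left no difference that passed there (0.03, adjusted p = 0.868), and the interaction was 1.01 (adjusted p = 0.00552). Mertk had 0.14 alone against 0.84 with the ligands (interaction 0.70, adjusted p = 0.00552). Lpl read 1713 and 2018 TPM untreated, 2143 and 1966 TPM with desmosterol alone, and at most 43.4 TPM in the libraries with the ligands (interaction 0.61, adjusted p = 0.0233). Lrp1, which is not on that list, went from 574.0 and 571.4 TPM to 589.9 and 581.0 TPM without the ligands (0.03, adjusted p = 0.607), and the interaction was 1.10 (adjusted p = 4.91e-05). In Cd5l, Lpl and Lrp1 the ligand libraries started from a lower level than the untreated ones and stayed below it with desmosterol. Mertk was likewise lower with the ligands, at 24.8 and 27.3 TPM against 43.2 and 39.5 TPM untreated, and with desmosterol added it read 47.1 and 47.9 TPM. Of the 16 tested LXR targets 11 rose with desmosterol alone, with a median of 0.68.

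In cholesterol synthesis, 12 of 19 genes fell with desmosterol alone, with a median of -0.37, and the interaction passed in 2, among them Dhcr7, with -0.16 alone against -0.63 with the ligands (interaction -0.47, adjusted p = 0.0163). The early gene Hmgcs1 had -0.79 alone and -0.71 with the ligands (interaction 0.08, 95% interval -0.10 to 0.26). For Srebf2 the values were -0.37 and -0.59 (interaction -0.22, adjusted p = 0.0457). Fasn, which rose by 0.74 with desmosterol alone from 24.9 and 25.3 TPM to 42.2 and 43.0 TPM, had an interaction of -0.84 (adjusted p = 0.00135).

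**Figure D4:**
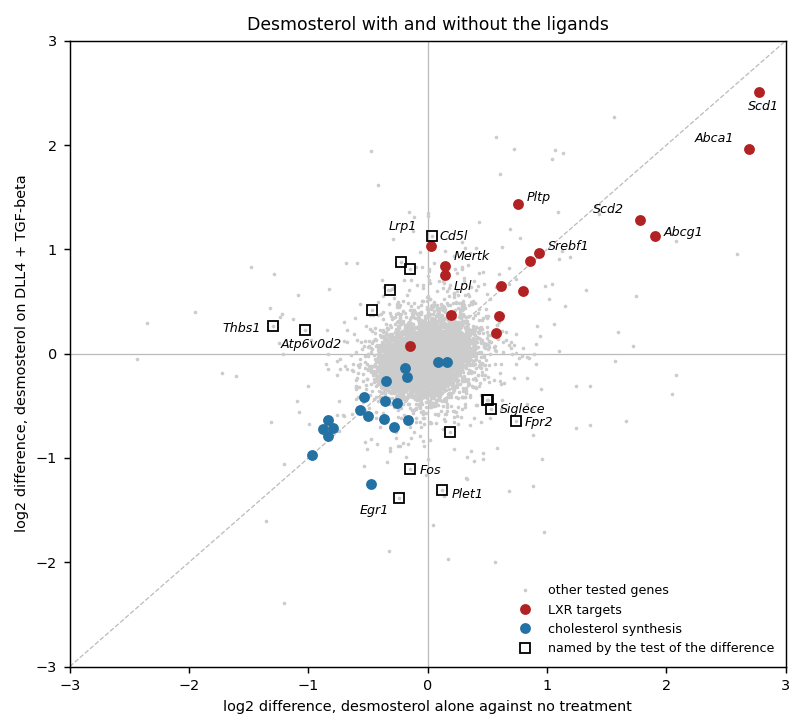
Log2 difference with desmosterol in cells given DLL4 plus TGF-beta (vertical axis) against that with desmosterol alone (horizontal axis), 1 point per tested gene on the log2(TPM + 1) scale, with LXR targets in red, cholesterol synthesis in blue and genes named by the test of the difference as squares. Scd1 lies near the diagonal at 2.78 and 2.51, Abca1, Abcg1 and Scd2 lie below it, and Lrp1 and Cd5l lie near 0 on the horizontal axis and above 1 on the vertical axis.

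Other genes named by the interaction had a higher response with the ligands than without them. Thbs1, thrombospondin, went from 45.3 and 43.0 TPM to 17.6 and 17.1 TPM with desmosterol alone and from 15.2 and 13.8 TPM to 16.8 and 18.5 TPM with the ligands (interaction 1.56, adjusted p = 0.000176). The difference with the ligands, 0.26, had an adjusted p of 0.0491 in limma and did not pass without any 1 of the 4 libraries. Atp6v0d2, a subunit of the vacuolar proton pump, had -1.02 alone and 0.23 with the ligands, of which the second did not pass (interaction 1.25, adjusted p = 0.0112). Tns1, tensin, had -0.47 and 0.42 (interaction 0.88, adjusted p = 0.00135). Synj2 and Mcoln2, a phosphatase and a lysosomal channel, had interactions of 0.97 and 0.93, and Hist1h2bc of 1.10, and for these 3 the value without the ligands did not pass.

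Plet1 was listed at 0 in both untreated libraries and at 0.048 and 0.128 TPM with desmosterol alone. No fall could be read there, so its interaction (-1.43, adjusted p = 0.00469) repeats the fall with the ligands and does not measure a differing response. Egr1 went from 23.4 and 28.1 TPM to 23.1 and 20.1 TPM without the ligands (interaction -1.14, adjusted p = 0.0238), and Fos from 205.8 and 212.3 TPM to 189.9 and 187.5 TPM (interaction -0.96, adjusted p = 0.00243). For Egr1 and Fos the difference without the ligands did not pass. The receptor gene Fpr2 had an interaction of -1.38 and stayed under 5 TPM in these 8 libraries. Siglece had -1.06, the amino acid transporter gene Slc7a5 -0.95, the mitochondrial ribosome gene Mrps28 -0.95 and the calcium pump gene Atp2a3 -0.94. Complement genes differed as well. C1qa had 0.69 alone, from 58.6 and 58.1 TPM to 92.2 and 98.0 TPM, and 0.11 with the ligands, from 1462 and 1472 TPM to 1579 and 1587 TPM (interaction -0.58, adjusted p = 0.00113). C1qb and C1qc had interactions of -0.51 and -0.39, Cfp of -0.78 and C3ar1 of 0.49. In the unfolded protein response 5 of 10 had an interaction that passed, all below 0, with Sdf2l1 at -0.68, Pdia4 at -0.47, Hyou1 at -0.41, Xbp1 at -0.29 and Hspa5 at -0.24. In MHC class II 6 of 10 genes rose with desmosterol alone, such as H2-Ab1 by 0.48 from 52.1 and 58.2 TPM, beside levels of 5559 and 5691 TPM with the ligands. Leaving out 1 of the 8 libraries moved the count of interactions to between 110 and 286. Of 13 other settings, the interaction of Siglece and of Srebf2 passed in 3, that of Mrps28 and of Hist1h2bc in 5, that of Fpr2 and of Synj2 in 6, that of Egr1 in 7 and that of Lpl in 8. Those of Abca1, Abcg1, Arl4c, Scd2, Cd5l, Mertk, Lrp1, Fos, Thbs1, Tns1, Slc7a5 and Atp2a3 passed in all 13.

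**Figure D5:**
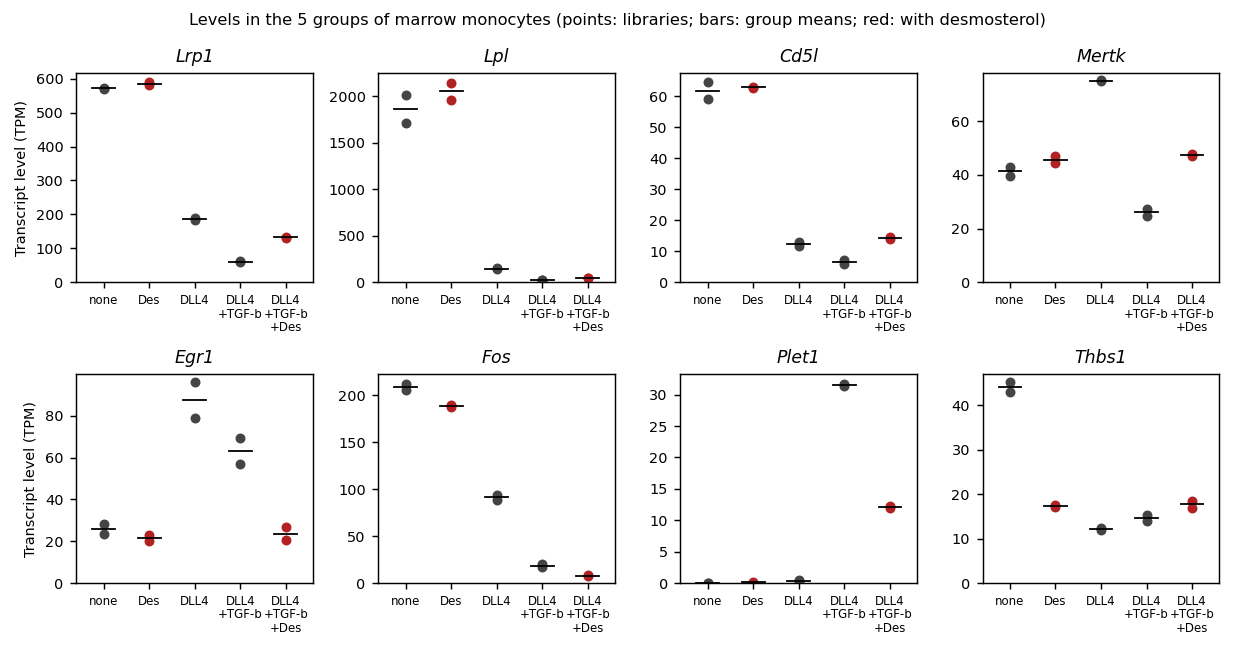
Transcript level (TPM, linear axes from 0) of 8 genes in the 5 groups of marrow monocytes, 1 point per library with a bar at the group mean, red where desmosterol was given. Lrp1, Lpl and Cd5l are lower with DLL4 plus TGF-beta than in untreated cells and higher once desmosterol is added, Egr1, Fos and Plet1 are lower once it is added, Mertk returns to near the untreated level, and Thbs1 is lower with desmosterol alone.

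The study gave another sterol, the synthetic LXR ligand DMHCA, with the same pair of ligands to C57BL/6J BMDMs, labelled as cultured for 4 days in the 24 h libraries and 6 days in the 72 h libraries, with 2 libraries in each group. Cells, times and perhaps doses differ from those of desmosterol, and the 72 h libraries carry 24 h treatment labels, so the values stand side by side without a comparison. DMHCA on DLL4 plus TGF-beta gave 9.21% of tested genes higher and 8.43% lower at 24 h, and 10.3% higher and 23.2% lower at 72 h, a time at which 2089 genes in place of 1123 were higher under quantile normalization. The 2 libraries with DMHCA and the ligands at 72 h differed more from each other than those of most groups. Their chi-square per degree of freedom on recovered reads was 13.88, beside 3.84 for the ligands alone at 72 h. The untreated pair at 24 h, which enters the same model, had 22.89. Of the 17 LXR targets 15 rose and 1 fell at 24 h, and 14 rose and 1 fell at 72 h. Scd1 had log2 differences of 3.96 at 24 h and 3.06 at 72 h, beside 2.51 with desmosterol. Abca1 had 3.36 and 2.63, beside 1.96, and Abcg1 had 2.99 and 2.30, beside 1.13. Cd5l rose at 24 h by 0.80, from 37.5 and 37.9 TPM to 63.0 and 70.1 TPM, and had -0.69 at 72 h, from 266.0 and 268.7 TPM to 157.6 and 172.4 TPM. Lrp1 had 0.49 and 0.37, Mertk 0.46 and 0.25, and Cd38 1.44 and 1.85.

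Of 19 cholesterol synthesis genes 17 fell with DMHCA at 24 h, and 16 fell and 1 rose at 72 h. Hmgcs1 had -1.31 at 24 h, from 55.5 and 57.5 TPM to 23.1 and 21.4 TPM, and -1.14 at 72 h. Fasn rose by 1.24 and 1.07 at the respective times, where desmosterol gave -0.10 with the ligands. All 10 tested genes of the unfolded protein response rose with DMHCA at either time, with Hspa5 at 0.71 and 0.87, where 6 of 10 fell with desmosterol. Egr1 rose by 0.79 at 24 h and had -1.01 at 72 h, and Fos had 0.82 and -0.33.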

How the data were processed

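RNA of cultured mouse marrow monocytes was measured by strand-specific poly(A) RNA-seq. The authors deposited TPM, made per the file headers with HOMER analyzeRepeats over exons on mm10 with 1 isoform per gene, and with STAR per the submitters' processing notes (versions not given in the sources used). Multiplied by length and a factor per library, 99.9% of low values (up to 20 reads) gave whole reads within 0.1 of a read. Recovered reads were 15009139 to 17605469 per marrow library and 7830287 to 18633587 per BMDM library, so low genes are read less surely in the shallower ones.

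Tests used limma 3.58.1 (R 4.3.3) on log2(TPM + 1), with a mean per group over the 10 marrow libraries, or the 18 BMDM libraries, and moderated variances that follow the mean. Tables used pandas 2.3.3 and numpy 2.4.6 in Python 3.11.15, and figures matplotlib 3.10.9. The method was also run on simulated counts with the same spread setting for every gene, which does not show how the calls hold in these libraries. No 2 libraries held identical values.

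Named genes are members of the lists, up to 12 genes per direction of the desmosterol comparison and 8 of the interaction with the largest differences that passed and at least 10 TPM in the higher group (for the desmosterol comparison also with no overlap between groups), passing over unnamed transcripts and small RNAs. Ggnbp2os and Trem3, like the unnamed transcripts, fell outside this rule. Some members of the lists are counted but not reported here by name. Members and lists were chosen with earlier results of these data known. Other settings were a pseudocount of 0.25, no filter, quantile normalization, a block for replicate numbers, limma-voom on recovered reads, a fit of the 4 libraries alone and leaving out each library.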

Additional observations from a re-analysis of the deposited data

Results flagged for a closer look

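The test of the difference between the desmosterol responses with and without DLL4 plus TGF-beta passed in 382 genes, and each value here is that log2 difference, the response with the ligands minus the response without them. Among LXR targets it was -0.73 for Abca1, -0.77 for Abcg1, -0.37 for Arl4c and -0.50 for Scd2, and 0.61 for Lpl, 0.70 for Mertk and 1.01 for Cd5l. In cholesterol synthesis and its control it was -0.47 for Dhcr7 and -0.22 for Srebf2. Outside these lists it was above 0 for Thbs1 (1.56), Atp6v0d2 (1.25), Hist1h2bc (1.10), Lrp1 (1.10), Synj2 (0.97), Mcoln2 (0.93) and Tns1 (0.88). It was below 0 for Plet1 (-1.43), Fpr2 (-1.38), Egr1 (-1.14), Siglece (-1.06), Fos (-0.96), Slc7a5 (-0.95), Mrps28 (-0.95) and Atp2a3 (-0.94). Plet1 was listed at 0 in both untreated libraries, so its value repeats the fall with the ligands and does not measure a differing response. The starting level of Lrp1, Lpl, Cd5l, Mertk, Thbs1 and Fos was lower with the ligands than without them, and that of Egr1 was higher. The part of the starting level in these differences was not tested.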

How the results depend on the processing

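With no filter on low values the count of lower genes was 392 with the ligands, desmosterol alone gave 853 genes (262 higher, 591 lower), and the interaction gave 192 (75 and 117). Quantile normalization gave 461 genes with the ligands, 261 of them lower, and 2089 higher genes for DMHCA at 72 h. Limma-voom gave 1301 genes with the ligands (673 higher, 41 with at least a 2-fold change), 2278 with desmosterol alone (1045 higher) and 827 interactions (449 and 378). The 4 libraries alone gave 359 lower genes. Leaving out 1 library at a time gave 190 to 358 genes with the ligands (72 to 130 higher, 118 to 228 lower, 16 to 38 at 2-fold), 227 to 1005 with desmosterol alone (101 to 357 higher, 121 to 678 lower), 110 to 286 interactions (38 to 110 and 68 to 186) and 1091 to 1409 for DMHCA at 24 h (56.8% to 66.8% of its 1005 higher genes and 56.5% to 80.2% of its 920 lower ones), where a lone library is assumed to vary like the other groups. Of 75 named or listed genes, 56 passed with the ligands, and 46 to 55 of these still passed under the settings that keep all libraries of the table, 39 to 45 with 1 library left out, and 0 changed direction. Deviations of same-numbered libraries had correlations of -0.07 to 0.12 over 10 pairs of groups, highest for the untreated and desmosterol-alone groups. Such low values show no clear pairing by replicate number and do not settle whether the samples were paired. A block for the replicate numbers gave 855 genes with the ligands (232 higher, 623 lower). With desmosterol alone the block gave 1543 genes in place of 1359. Except where a value is shown, the cause was not tested. With 2 libraries a group and 15009139 reads or more, small differences in genes near 4 TPM are read least surely.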
